A study of Mus musculus with 16 samples.

Results

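The liver X receptor (LXR) and cholesterol efflux genes were read here as 9 genes of the 32285 in the deposited gene lists: Nr1h2, Nr1h3, Rxra, Abca1, Abcg1, Abcg4, Mylip, Lpcat3 and Soat1. They were chosen by symbol, with no measured value in the rule but with earlier results of these data known, and all 9 were found. Single nuclei had been sequenced from 16 samples of hippocampus of female mice aged 9 months, in 4 groups of 4. Groups Ch25h+/+ Tau- and Ch25h+/+ Tau+ were labelled as wild type for Ch25h, and groups Ch25h-/- Tau- and Ch25h-/- Tau+ as lacking it. In the text, with and without tau stand for the labels Tau+ and Tau-, which do not say what tau the Tau- mice carry. The labels name neither the tau line, its promoter, the strain nor the part of Ch25h that was deleted, and do not say whether each sample was 1 animal. The title of the series concerns an interferon and CH25H lipid axis in tau pathology.

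LXRs are nuclear receptors that sense oxidised cholesterol, and one such ligand is the hydroxylated cholesterol made by the enzyme that Ch25h encodes. Each LXR pairs with a retinoid X receptor on DNA and switches on genes that move cholesterol out of the cell, slow its uptake and remodel membrane lipids. In brain, cholesterol is made locally and handed between glia and neurons on Apoe particles, and microglia that take up myelin or dead cells must export or esterify the surplus.

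All members are protein-coding, and their positions on GRCm38 are given from the GENCODE M21 annotation. The receptors are Nr1h2 (LXR beta) at chr7:44549616-44553951 on the minus strand and Nr1h3 (LXR alpha) at chr2:91184061-91202834 on the minus strand. Their partner Rxra (retinoid X receptor alpha) lies at chr2:27676440-27762957 on the plus strand. The transporter genes are Abca1 at chr4:53030787-53159895 (minus), Abcg1 at chr17:31057675-31117988 (plus) and Abcg4 at chr9:44273188-44288615 (minus). Mylip, whose product IDOL degrades lipoprotein receptors, is at chr13:45389742-45412022 (plus), and Lpcat3, a phospholipid-remodelling acyltransferase, at chr6:124663027-124704418 (plus). Soat1, which esterifies cholesterol for storage, is at chr1:156424525-156474331 (minus). Lpcat3 overlaps Emg1, Soat1 overlaps Gm37648 (both on the opposite strand), Nr1h3 overlaps Gm13783 and Gm23390, and Abcg1 overlaps Gm25447. Whether the authors' counting used strand is not given in the sources used here. Whether reads of the pairs on opposite strands were counted apart is therefore not known here.

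The promoter windows of 7 members were matched in the RefSeq table (GRCm38.p6), each 300 bases long and running from 250 bases before the start site. Abcg1 and Abcg4 had no matched window, so their promoters were not searched. An LXR element was searched on both strands as GGTNA, 5 bases of any kind, and GGTNA again. Of the 32851 windows in the table, 236 (0.718%) held it, and of the members' windows only that of Abca1 did, 1 match from 67 to 53 bases before the start site, at chr4:53159948-53159962. The upstream 250 bases of Abca1 (chr4:53159896-53160145, minus strand) are shown because the match lies there, in capitals, which read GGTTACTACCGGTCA on the opposite strand. Those of Soat1 (chr1:156474329-156474578, minus strand), the member whose level changed with genotype below, are shown beside it and hold no match.
Abca1: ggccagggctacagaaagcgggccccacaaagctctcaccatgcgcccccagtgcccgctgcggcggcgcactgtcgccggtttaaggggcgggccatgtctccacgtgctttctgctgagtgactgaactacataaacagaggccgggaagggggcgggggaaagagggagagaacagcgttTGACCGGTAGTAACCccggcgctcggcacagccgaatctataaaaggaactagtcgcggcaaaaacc
Soat1: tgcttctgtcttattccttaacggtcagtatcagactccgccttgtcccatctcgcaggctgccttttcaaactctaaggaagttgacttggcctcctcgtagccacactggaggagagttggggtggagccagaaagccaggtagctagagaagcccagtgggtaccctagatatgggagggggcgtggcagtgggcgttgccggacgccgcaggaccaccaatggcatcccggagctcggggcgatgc
A match of letters is a description of the window, and the data hold no measure of binding there.

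The libraries held 51270831 to 84870650 unique molecular identifiers (UMIs, counted RNA molecules), and 147873 nuclei had at least 500 UMIs, at least 300 genes and at most 5% mitochondrial UMIs. After 11045 doublets were removed, 136828 nuclei remained. They formed 56 clusters, of which 22 (109634 nuclei) were named from marker genes as 16 classes. The names stand for marker-defined classes (microglia-like and so on), shortened to the cell type. Of these, 9 had at least 20 nuclei in every library and entered tests. Of 145135 distinct barcodes, 2700 (1.86%) occurred in more than 1 library. After each group's mean was subtracted, libraries 1 and 2 (in accession order) of each of the 4 groups lay on opposite sides of the main axis from 3 and 4. This held for all 16 libraries in 8 tested classes and 15 of 16 in microglia. That axis held 32.6 to 46.8% of the variance left within groups, which leaves out the differences between groups. The labels name no batch. Over all nuclei Ch25h UMIs did not separate the labels, with 94 of Ch25h+/+ Tau+, 38 of Ch25h+/+ Tau-, 96 of the group labelled Ch25h-/- Tau+ and 75 of Ch25h-/- Tau-. In microglia there were 33 UMIs (9.42 CPM) in Ch25h+/+ Tau+, 7 (2.31 CPM) in Ch25h-/- Tau+ as labelled, and 0 without tau in either genotype. A 3' tag outside the deleted part checks nothing, and genotypes are given as labelled throughout. Library 3 of Ch25h+/+ Tau+ stood apart in microglia, with Lpl, a lipase gene of activated microglia, at 2.74 CPM (UMIs of a gene among 1000000 UMIs of the class in that library) against 36.5 to 186 in the other 7 Tau+ libraries. Results that rest on it are given with and without it. It was picked out after the data were seen, by a gene that differs with tau below. Values without it are therefore no independent support for a tau difference.

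Among the receptors, Nr1h2 was read in all 9 tested classes, Nr1h3 was sparse in each of these, and Rxra was sparse in most classes. Values are CPM of the counts summed over the nuclei of a class in a library, given as mean ± SD over 16 libraries unless another n is stated. Nr1h2 was at 24.8 ± 8.40 CPM in microglia, 20.9 ± 4.82 in astrocytes and 19.3 ± 3.66 in oligodendrocytes, with neither of these steps beyond the spread. It was lower in oligodendrocyte precursors (12.1 ± 3.48) and inhibitory neurons (11.8 ± 1.55), and lowest in dentate gyrus (DG) granule neurons, at 4.38 ± 0.618. The step from CA1 pyramidal to DG granule neurons was a mean of 0.65 on the log2(CPM + 1) scale and went the same way in 16 of 16 libraries (exact sign-flip permutation test, two-sided, adjusted p = 1.37e-04). The raw p behind that value, 3.05e-05, is the smallest that 16 libraries allow. Barcodes with under 100 UMIs, which carry free RNA, held Nr1h2 at 26.3 CPM, above the mean of every tested class. The levels of Nr1h2 are therefore read only against each other.

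Nr1h3 was at its highest in mural cells, the contractile cells of vessels, at 77.1 ± 46.9 CPM over the 9 libraries with at least 20 such nuclei. Fibroblasts followed at 28.3 ± 17.1 CPM (n = 15 libraries). These classes had no genotype test, and the mural level rests on 33 UMIs. Among the tested classes astrocytes had the highest Nr1h3 level, 7.14 ± 1.82 CPM, above CA3 pyramidal neurons at 4.13 ± 1.07 (exact sign-flip permutation test, adjusted p = 3.30e-04, 15 of 16 libraries). Microglia held only 28 Nr1h3 UMIs in 5824 nuclei of all libraries together, a level of 2.82 ± 2.16 CPM, below the 4.04 CPM of free RNA. Rxra was at 13.1 ± 5.60 CPM in microglia, 8.35 ± 1.91 in inhibitory neurons and 7.16 ± 2.76 in astrocytes, with no step between these beyond the spread. Its other tested classes lay between 1.49 and 3.79 CPM.

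The efflux transporters had different highest classes among those tested. Abca1, which loads cholesterol onto lipid-poor Apoe, was highest in microglia and higher in each tested glial class than in any tested neuron class. Abcg1, which exports sterol to formed lipoprotein particles, was highest in oligodendrocytes and lowest in astrocytes. Abcg4, a close relative of Abcg1, was highest in inhibitory neurons.

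Abca1 was at 458 ± 93.1 CPM in microglia, with the 16 libraries between 327 and 627. Astrocytes held 218 ± 50.6 CPM, oligodendrocyte precursors 159 ± 21.7 and oligodendrocytes 111 ± 23.9. The tested neuron classes were far lower, from 21 ± 5.65 CPM in CA1 to 3.99 ± 1.80 in the other excitatory neurons. All 8 steps between neighbouring classes in this order passed the exact sign-flip permutation test, the step from microglia to astrocytes by 1.07 on the log2 scale in 16 of 16 libraries (adjusted p = 1.37e-04). The sharpest was that from oligodendrocytes to CA1 neurons, by 2.36. Free RNA held Abca1 at 35.7 CPM, above each tested neuron class, and its part in the neuronal levels was not tested. Outside the tested classes, border-associated macrophages had 527 ± 136 CPM (n = 9 libraries) and fibroblasts 236 ± 73.4 (n = 15). Microglia held 1.60% of all UMIs of named nuclei and 16.1% of the Abca1 UMIs, and astrocytes 6.30% and 29.3%.

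Abcg1 was at 137 ± 14.7 CPM in oligodendrocytes, above microglia at 95.3 ± 26.0 (adjusted p = 4.78e-04, exact sign-flip permutation test, 14 of 16 libraries). Oligodendrocyte precursors were at 75.2 ± 17.2 CPM, not separated from microglia (adjusted p = 0.0724, exact sign-flip permutation test). The tested neuron classes lay between 25.8 and 41.0 CPM. Astrocytes had 2.85 ± 1.67 CPM, 99 UMIs in 13945 nuclei, and lay below CA3 neurons by 2.92 on the log2 scale in 16 of 16 libraries (exact sign-flip permutation test, adjusted p = 1.37e-04). Free RNA held Abcg1 at 48.2 CPM. The median depth was 2376 UMIs in astrocytic nuclei and 12341 in CA3 neurons.

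Abcg4 was at 25.4 ± 2.93 CPM in inhibitory neurons, above CA3 neurons (17.3 ± 2.86) in 16 of 16 libraries (exact sign-flip permutation test, adjusted p = 1.37e-04). One of the 3 inhibitory clusters had no inhibitory marker among its 10 leading genes; without it, an alternative chosen after the clusters were seen, the level was 25.5 ± 2.57 CPM, again above CA3 neurons in 16 of 16 libraries. The 4 excitatory classes, from 17.3 down to 15.1 CPM in DG granule neurons, did not differ from their neighbours beyond the spread. Oligodendrocytes and microglia were lowest among the tested classes, at 2.79 ± 1.44 and 3.89 ± 4.69 CPM, with 114 and 27 UMIs in all. Free RNA held Abcg4 at 29.3 CPM, so the class levels are read here only against each other.

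**Figure D1:**
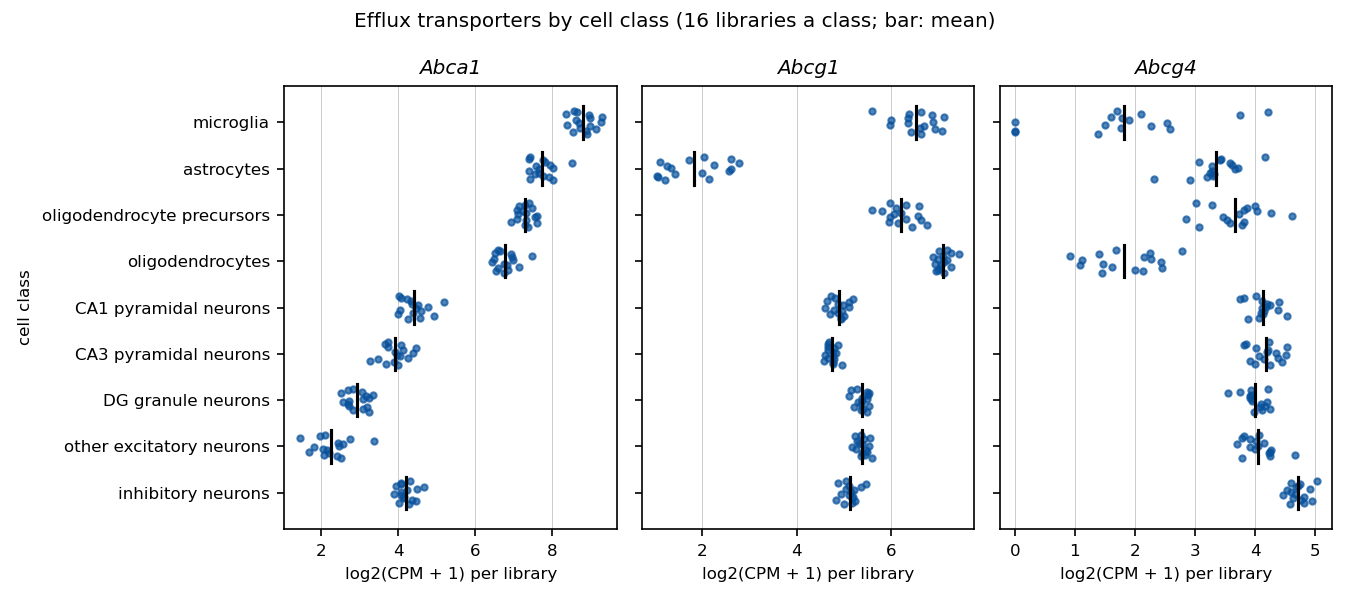
Abca1, Abcg1 and Abcg4 in the 9 tested cell classes, as log2(CPM + 1) on the horizontal axis; each point is 1 of 16 libraries and each bar the mean. Abca1 is highest in microglia (458 CPM), Abcg1 in oligodendrocytes (137 CPM) with astrocytes lowest (2.85 CPM), and Abcg4 in inhibitory neurons (25.4 CPM).

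Of the other targets, Mylip and Lpcat3 were highest in microglia. Mylip stood at 427 ± 88.4 CPM there, 2.88 above CA1 neurons (56.4 ± 7.52 CPM) on the log2 scale in 16 of 16 libraries. CA1 neurons in turn were above the other excitatory neurons (21.2 ± 4.05 CPM) in 16 of 16 libraries, and both steps had an adjusted p of 1.37e-04 in the exact sign-flip permutation test. CA1 neurons held 30.7% of the Mylip UMIs in named nuclei and microglia 24.2%. The remaining tested classes lay between 5.61 CPM in inhibitory neurons and 17.6 in DG granule neurons, below the 33.6 CPM of free RNA. Outside the tested classes, mural cells were at 131 CPM, border-associated macrophages at 89.5 and fibroblasts at 85.8. Lpcat3 was at 143 ± 28.9 CPM in microglia, 91.4 ± 8.32 in astrocytes and 56.4 ± 8.43 in oligodendrocytes, each step in 16 of 16 libraries (exact sign-flip permutation test, adjusted p = 1.37e-04). The tested neuron classes ranged from 35 CPM in CA3 to 20.5 in inhibitory neurons. Whether reads of the overlapping gene Emg1 were counted apart from Lpcat3 is not known here.

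Soat1 was highest in astrocytes among the tested classes, as was the sparse Nr1h3. It was at 197 ± 31.8 CPM in astrocytes, 103 ± 42.9 in microglia and 53.7 ± 10.4 in oligodendrocyte precursors. Both steps passed the exact sign-flip permutation test, in 16 and 13 of 16 libraries (adjusted p = 1.37e-04 and 0.00183). Astrocytes held 37.4% of its UMIs in named nuclei. The tested neuron classes and oligodendrocytes lay between 13.8 and 22.3 CPM, below the 40.6 CPM of free RNA. Over the 9 members, 38 of 72 steps between neighbouring classes passed at an adjusted p under 0.05.

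**Figure D2:**
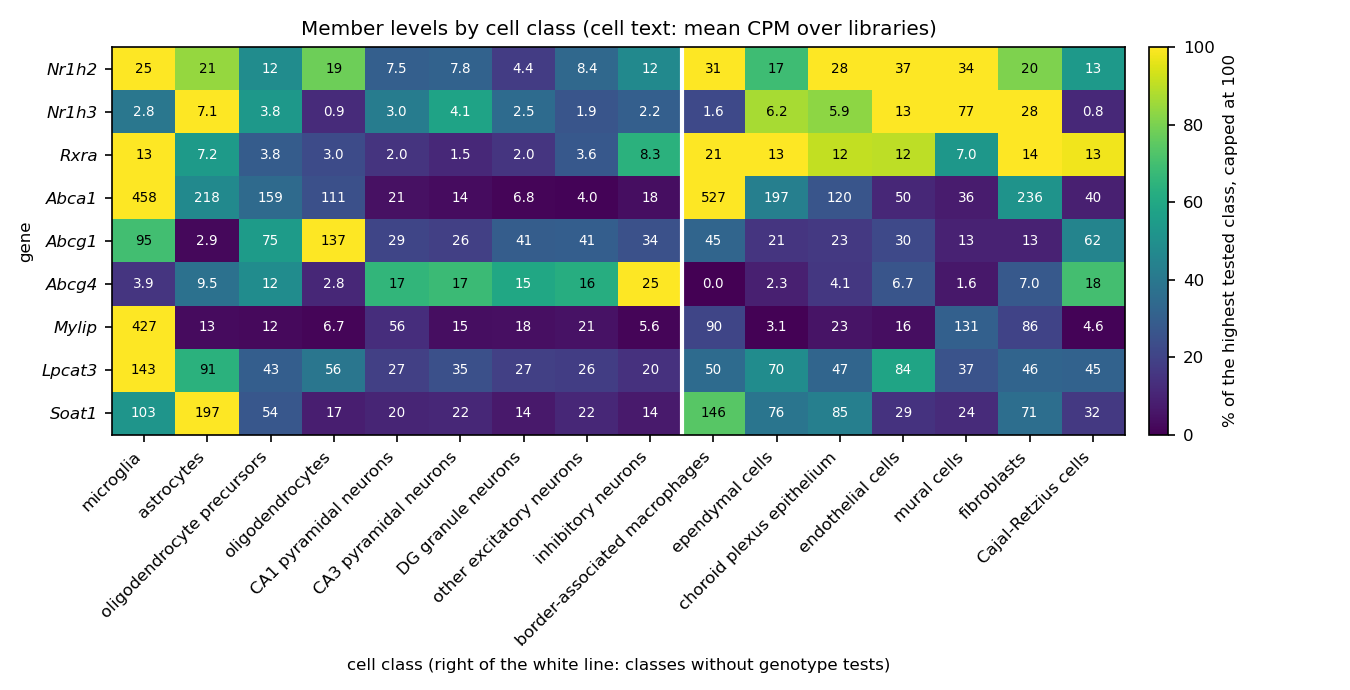
Mean CPM of each member in 16 cell classes (numbers), with colour scaled within each gene to its highest tested class; rows are not comparable in level between genes. Classes right of the white line had under 20 nuclei in some libraries. Abca1 (458), Mylip (427) and Lpcat3 (143 CPM) peak in microglia among tested classes, Soat1 (197) in astrocytes, Abcg1 (137) in oligodendrocytes and Abcg4 (25.4) in inhibitory neurons.

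Over the 16 named classes, levels of Abca1 and Soat1 had the highest correlation of any pair of members (Pearson's r = 0.84), and Nr1h2 and Abcg4 the lowest (r = -0.73). The points are classes of the same libraries and differ in depth, so these are descriptions. Among 16456 genes at 10 CPM or more in at least 1 class, the gene most like Abca1 over the classes was Fundc1 (r = 0.932), that most like Soat1 was Adhfe1 (r = 0.931), and that most like Nr1h2 was Mtus1 (r = 0.952). Nr1h3 was most like Gm30667 (r = 0.932), Rxra most like Nucb1 (r = 0.935) and Abcg4 most like Ttc21b (r = 0.933). Mylip (Sf3b1, r = 0.89), Lpcat3 (Plekhf2, r = 0.884) and Abcg1 (Lrrc8dos, r = 0.83) had less close neighbours.

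Tau genotype was compared over both Ch25h genotypes, 8 Tau+ against 8 Tau- libraries, with edgeR's quasi-likelihood test in each class and Benjamini-Hochberg adjustment over all genes of that class. Soat1 rose in Tau+ microglia, and it was the only call among 71 tests of members in 9 classes (1 higher, 0 lower). Unadjusted, 9 of 71 tests had a p under 0.05, 6 of them for Abca1, where 9.68% of all tests did. Over all genes and classes 1271 of 114258 tests (1.11%) were called, and in microglia 761 of 8440 genes (9.02%, 458 higher and 303 lower). DESeq2 also called 1 member. The remaining 10 of 81 pairs of member and class failed the filter on low counts: Rxra in CA3 neurons, microglia and both oligodendrocyte classes, Nr1h3 in microglia and both of these, Abcg4 in microglia and oligodendrocytes, and Mylip in oligodendrocyte precursors.

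In microglia of Ch25h+/+ Tau- mice, Soat1 was at 85.6, 35.2, 62.8 and 108 CPM. In Ch25h+/+ Tau+ it was at 156, 123, 65.8 and 195 CPM. The groups labelled Ch25h-/- gave 57.6, 87.4, 49.6 and 111 CPM without tau and 134, 117, 124 and 138 CPM with it. All Tau+ libraries but library 3 of Ch25h+/+ lay above every Tau- library, so 7 of 8 did, and the groups overlapped through that library. The log2 fold change was 0.81 (SE 0.22, 95% CI 0.36 to 1.27, edgeR adjusted p = 0.0224), from a mean of 74.6 ± 27.5 CPM (SD, n = 8) to 132 ± 36.5. Without library 3 of Ch25h+/+ Tau+ it was 0.90 (adjusted p = 0.00117). The call was lost without Ch25h+/+ Tau+ library 1 (adjusted p = 0.0508) or without Ch25h+/+ Tau- library 3 (0.0535), with the fold change over all libraries left out in turn between 0.69 and 0.93.

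Within Ch25h+/+ the tau difference in microglial Soat1 was 0.94 (SE 0.31, edgeR adjusted p = 0.129), and within the labelled Ch25h-/- mice 0.69 (SE 0.30, adjusted p = 0.289). The difference between these was -0.25 (95% CI -1.16 to 0.67, adjusted p = 1.0). On libraries 1 and 2 of each group alone the tau difference was 0.95 (edgeR adjusted p = 0.155), and on libraries 3 and 4 alone 0.66 (adjusted p = 0.502). Values for a side alone, here and below, come from a fit of all 16 libraries with a mean per group and side. Its estimate of spread is shared by both sides. With that split as a covariate the difference was 0.82 (edgeR adjusted p = 0.0267). In the other 8 classes Soat1's tau difference lay between -0.13 and 0.17 and none was called, astrocytes included (-0.13, 95% CI -0.38 to 0.13).

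Several measures were read beside the Soat1 rise in microglia. Tau+ libraries held 238 to 605 microglial nuclei at medians of 1337 to 1988.5 UMIs, and Tau- libraries 166 to 444 at 1063 to 1560. Markers of astrocytes, the class with the highest Soat1, summed in microglia to 345 to 457 CPM in Tau+ and 415 to 622 in Tau-, with none of the 9 at 0. Those of border-associated macrophages summed to 3.08 to 35.6 CPM in Tau+ and 0 to 26.7 in Tau-, with none of the 5 at 0 over all libraries. The 9 microglial markers summed to 8050 to 11300 CPM in Tau+ and 9760 to 12300 in Tau-. Free RNA held Soat1 at 31.2 to 45 CPM in Tau+ and 22.6 to 50.2 in Tau-. The astrocyte markers had a median of 392 CPM in Tau+ and 487 in Tau-. The part of depth, of these markers and of free RNA in the result was not tested.

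**Figure D3:**
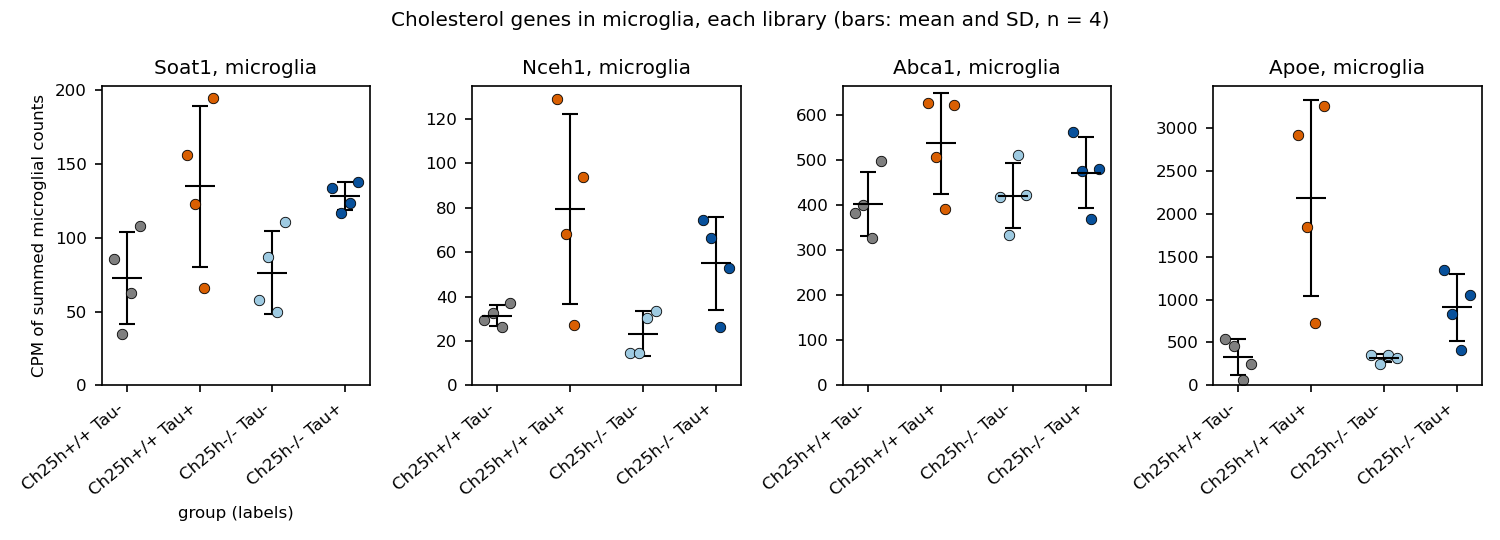
Soat1, Nceh1, Abca1 and Apoe in microglia, in CPM of the summed counts of each library (points) by labelled group, with the mean and SD (bars, n = 4). Soat1 lies at 117 CPM or above in 7 of 8 Tau+ libraries and at 111 or below in all Tau- libraries; the low point in Ch25h+/+ Tau+ is library 3 (65.8 CPM).

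Abca1 was higher on average in Tau+ in 8 of 9 classes, and in none did the difference pass the test. The classes come from the same libraries and are not independent, so this count is a description. In microglia of Ch25h+/+ mice Abca1 was at 383, 400, 327 and 497 CPM without tau and at 627, 507, 392 and 621 with tau. In mice labelled Ch25h-/- it was at 417, 333, 511 and 423 CPM without tau and at 562, 475, 370 and 479 with tau. The groups overlapped, and library 3 was the lowest of both Tau+ groups. The log2 fold change was 0.28 (SE 0.11, 95% CI 0.05 to 0.51, edgeR adjusted p = 0.133). Without library 3 of Ch25h+/+ Tau+, picked out by its low Lpl, it was 0.34 and passed the test (edgeR adjusted p = 0.0321). In that fit 1049 of 9135 genes (11.5%) passed. Libraries 1 and 2 alone gave 0.48 (adjusted p = 0.0509) and libraries 3 and 4 alone 0.07 (adjusted p = 0.896).

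In astrocytes Abca1 was at 170, 168, 217 and 223 CPM in Ch25h+/+ Tau- and at 367, 244, 191 and 262 in Ch25h+/+ Tau+. The groups labelled Ch25h-/- gave 201, 169, 200 and 187 CPM without tau and 215, 242, 172 and 258 with tau. Of the Tau+ libraries, 5 of 8 lay above all Tau- libraries (223 CPM at most), and the fold change was 0.29 on the log2 scale (SE 0.11, edgeR adjusted p = 0.189). As in microglia, the difference was larger on libraries 1 and 2 alone (0.52, adjusted p = 0.0808) than on 3 and 4 alone (0.07, adjusted p = 0.899); the difference between these sides was not tested.

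Abca1 in DG granule neurons had the smallest unadjusted p of the 71 member tests, and did not pass after adjustment over all genes. The Tau- libraries lay at 6.11, 5.47, 7.34 and 4.72 CPM in Ch25h+/+ and at 5.61, 4.95, 5.50 and 5.58 in the labelled Ch25h-/-. The Tau+ libraries lay at 9.13, 7.98, 8.37 and 7.55 CPM in Ch25h+/+ and at 8.07, 7.47, 6.14 and 8.5 in Ch25h-/-. Of the Tau+ values, 7 of 8 were above every Tau- value. The log2 fold change was 0.47 (SE 0.11, 95% CI 0.25 to 0.69, edgeR adjusted p = 0.135). All of these levels were under the 25.7 to 64.2 CPM of Abca1 in free RNA of the Tau+ and 28.8 to 38.6 of the Tau- libraries. The 9 microglial markers summed in DG granule neurons to 131 to 171 CPM in Tau+ and 115 to 178 in Tau-, and the 9 astrocyte markers to 167 to 213 and 185 to 231. The part of free RNA in this difference was not tested.

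In the remaining classes too no Abca1 difference passed. CA1 neurons gave 0.35 on the log2 scale (SE 0.15), inhibitory neurons 0.26 (SE 0.10), and the other excitatory neurons 0.56 (SE 0.23), with edgeR adjusted p-values of 0.625, 0.708 and 0.638. CA3 neurons and oligodendrocytes both gave 0.12. Oligodendrocyte precursors alone had a lower mean in Tau+, at -0.13 (SE 0.10, adjusted p = 0.972).

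**Figure D4:**
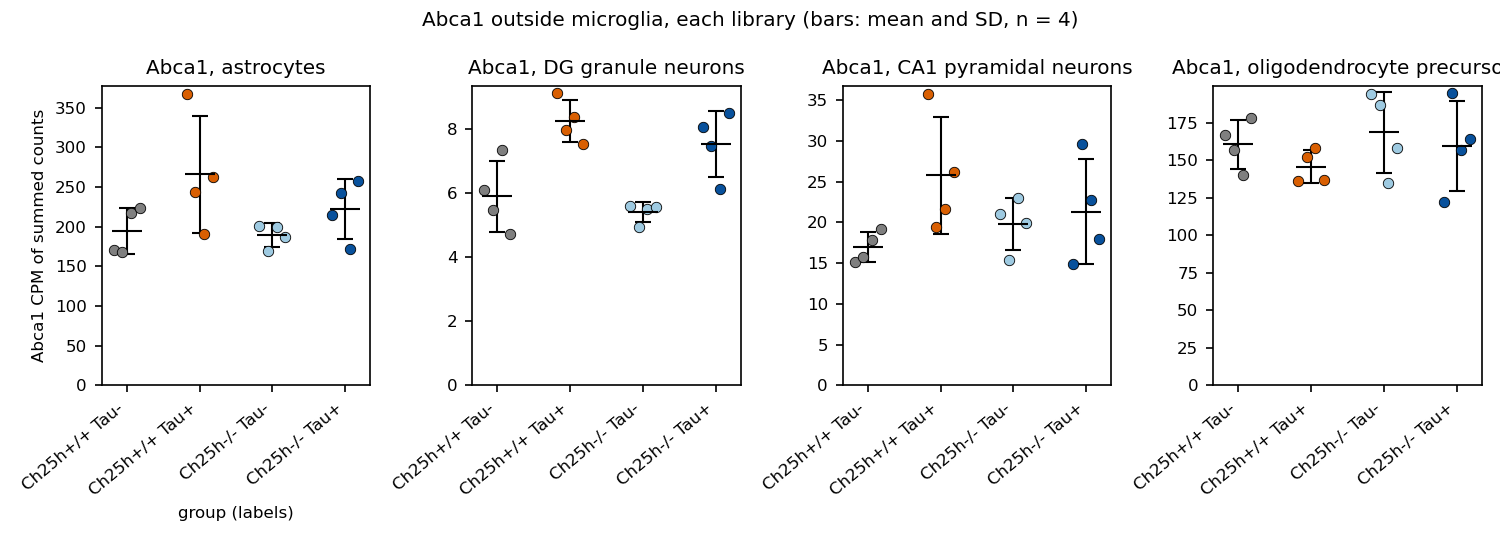
Abca1 in astrocytes, DG granule neurons, CA1 pyramidal neurons and oligodendrocyte precursors, in CPM of the summed counts of each library (points) by labelled group, with the mean and SD (bars, n = 4). In DG granule neurons 7 of 8 Tau+ libraries lie above the highest Tau- library (7.34 CPM), and in oligodendrocyte precursors Tau+ and Tau- libraries share the range.

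The remaining members showed no tau call. Abcg1's tau difference in microglia was 0.33 (SE 0.18, edgeR adjusted p = 0.317) and in oligodendrocytes, its highest class, -0.13 (SE 0.08, adjusted p = 0.623), from 143 ± 17.0 CPM in 8 Tau- to 130 ± 8.83 in 8 Tau+ libraries. Abcg4 in inhibitory neurons stood at 25.2 ± 3.15 CPM in Tau- and 25.6 ± 2.89 in Tau+ libraries (0.01, 95% CI -0.17 to 0.20; -0.04, 95% CI -0.23 to 0.14, without the inhibitory cluster that lacked a leading marker). Mylip in microglia was at 425 ± 102 CPM in Tau- and 429 ± 79.7 in Tau+ (0.01, 95% CI -0.25 to 0.27), an interval that leaves out a change of 2-fold in either direction. Lpcat3 in microglia was at 155 ± 26.3 CPM in Tau- and 132 ± 28.2 in Tau+ (-0.25, SE 0.13, adjusted p = 0.274).

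In DG granule neurons Mylip was at 16.1 ± 2.33 CPM in Tau- and 19.1 ± 2.47 in Tau+ (0.25, SE 0.09, edgeR adjusted p = 0.424).

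No receptor was called. Nr1h2 differences lay between -0.20 and 0.13 over its 9 classes. Nr1h3 was at -0.56 in inhibitory neurons (SE 0.23, edgeR adjusted p = 0.744) and 0.32 in astrocytes (SE 0.18, adjusted p = 0.460). Rxra was lower on average in Tau+ in all 5 classes tested, from -0.29 to -0.48, and none passed (smallest edgeR adjusted p = 0.408, in astrocytes). These classes too come from the same libraries, so the count of classes is a description. Over the 71 tests the median tau difference was 0.02 on the log2 scale, and the median of all genes lay between -0.007 and 0.003 in each class.

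Within single Ch25h genotypes no member was called. In Ch25h+/+ the tau contrast called 0 of 71 member tests against 0.247% of all tests, and in the labelled Ch25h-/- 0 of 71 against 0.158%. At an unadjusted p under 0.05 there were 9 and 5 member tests, where 6.72% and 7.38% of all tests passed. DESeq2 called 0 in both. Without library 3 of Ch25h+/+ Tau+, 2 were called in Ch25h+/+, both in microglia: Soat1 (1.12, edgeR adjusted p = 0.0102) and Abca1 (0.51, adjusted p = 0.0420). That library was picked out after the data were seen. The share of all genes called in this contrast without it is not given here, so the count does not set the members apart.

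Mylip in astrocytes was at 9.04 ± 2.76 CPM in Ch25h+/+ Tau- and 16 ± 4.26 in Ch25h+/+ Tau+ (SD, n = 4), a difference of 0.73 (SE 0.25, edgeR adjusted p = 0.210). The labelled Ch25h-/- groups had 15.3 ± 3.27 CPM without tau and 12.8 ± 2.13 with tau, a difference of -0.26 (SE 0.25, adjusted p = 0.872). The difference between these tau effects was -0.99 (SE 0.35, edgeR adjusted p = 1.0). All 4 levels lay below the 33.6 CPM of Mylip in free RNA. That contrast called 0 of 71 member tests (0 in DESeq2), as it called 0% of all tests. At an unadjusted p under 0.05 there were 2 member tests and 3.88% of all tests.

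Loss of Ch25h, as labelled, called no member either. Over both tau states it called 0 of 71 member tests (0 in DESeq2) and 13 of 114258 tests over all genes (0.0114%). In Tau+ mice the counts were 0 of 71 members (0 in DESeq2) and 0.00613% of all tests. In Tau- mice they were 0 of 71 (0 in DESeq2) and 0.00350%. At an unadjusted p under 0.05 these contrasts had 3, 4 and 2 member tests, where 2.79%, 3.42% and 3.24% of all tests passed. With so few calls over all genes, the members' count of 0 does not set them apart.

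The intervals below are for averages over both tau states, and bound the difference between the labelled genotypes. Ch25h itself had 0 UMIs in microglia without tau in either genotype. These averages therefore do not bound a loss effect in Tau+ mice alone. In Tau+ mice alone the 71 member differences lay between -0.88 and 0.45 on the log2 scale, with a median of -0.07. Of the 6 members tested in microglia there, 2 were higher in the labelled Ch25h-/-, and the median was -0.13. Intervals for Tau+ mice alone are not given here. For Abca1 in microglia, 446 ± 74.9 CPM in 8 labelled Ch25h-/- and 469 ± 112 in 8 Ch25h+/+ libraries, the log2 difference was -0.06 (95% CI -0.29 to 0.17). In astrocytes it was -0.14 (95% CI -0.37 to 0.09). Soat1 in microglia differed by 0.02 (95% CI -0.44 to 0.47), and Abcg1 in oligodendrocytes by -0.06 (95% CI -0.23 to 0.11). Mylip in microglia was higher on average without Ch25h, 464 ± 71.3 against 390 ± 92.3 CPM (0.26, 95% CI -0.01 to 0.52, edgeR adjusted p = 1.0).

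The smallest unadjusted p of these 71 tests was for Abcg4 in DG granule neurons. It was at 17.5, 14.3, 12.5 and 10.7 CPM in Ch25h+/+ Tau- and at 14.3, 14, 14 and 14.5 in Ch25h+/+ Tau+. The labelled Ch25h-/- groups gave 14.4, 17.3, 16.1 and 17.0 CPM without tau and 15.9, 17.9, 16.4 and 14.7 with tau. The ranges overlapped, and the difference was 0.22 (SE 0.09, edgeR adjusted p = 1.0).

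**Figure D5:**
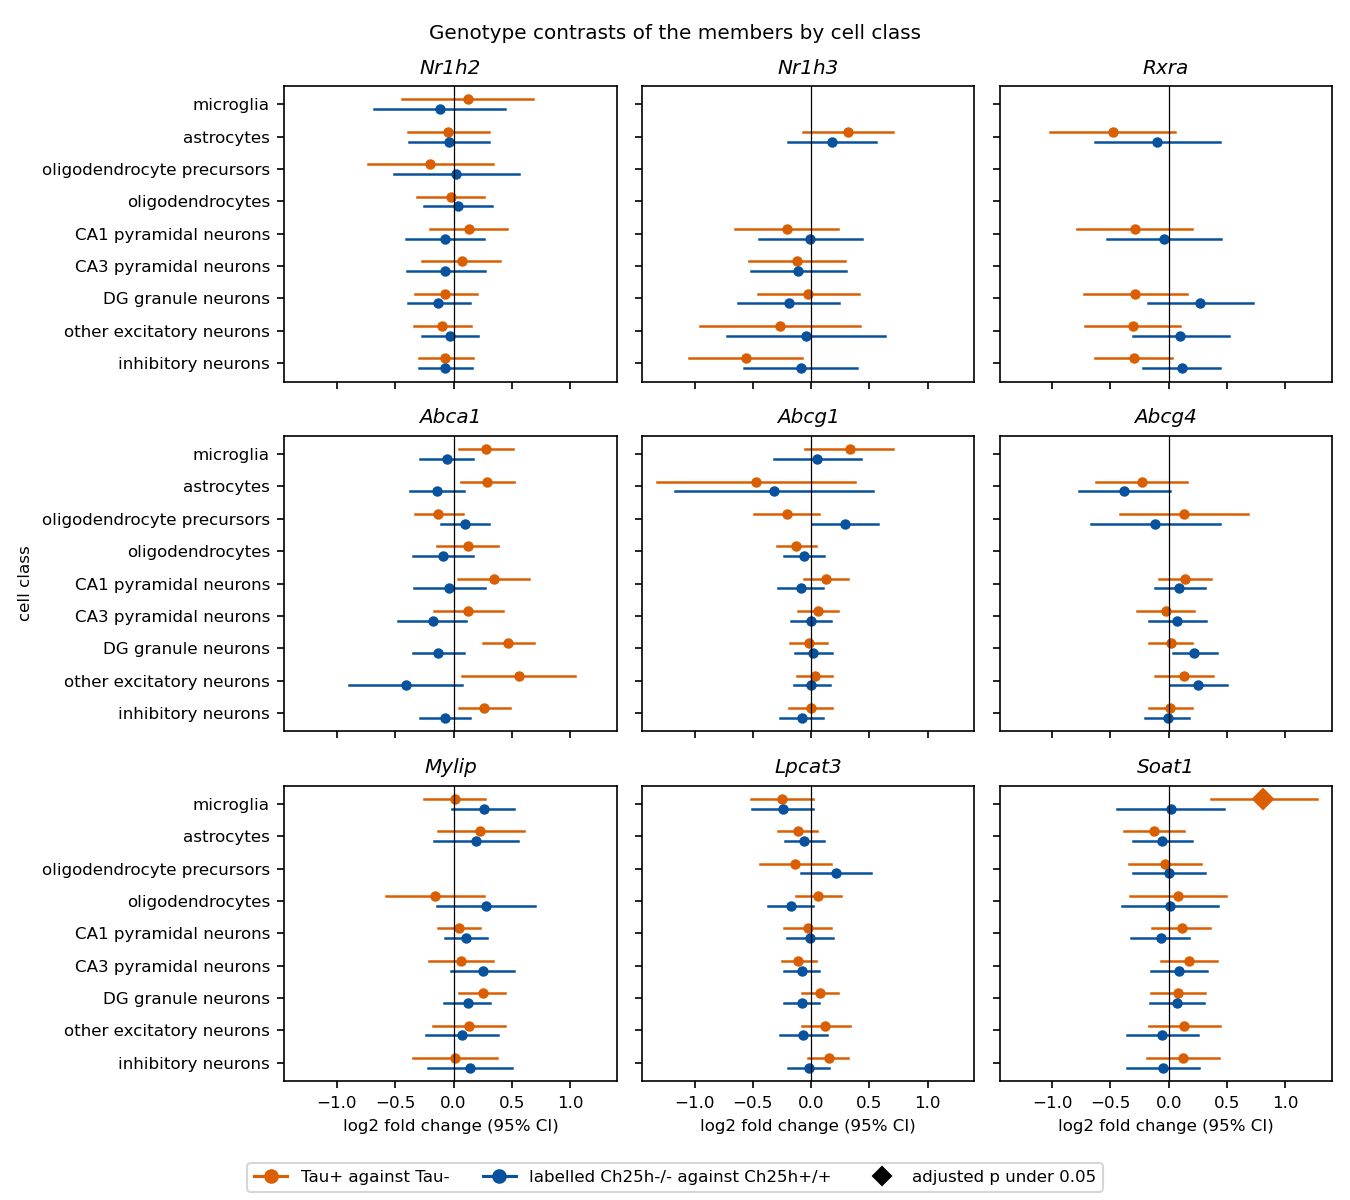
Log2 fold changes of each member with 95% confidence intervals in the tested classes, for Tau+ against Tau- over both Ch25h genotypes (orange) and labelled Ch25h-/- against Ch25h+/+ over both tau states (blue); diamonds mark an adjusted p under 0.05. The one diamond is Soat1 in microglia (0.81), and missing rows failed the filter on low counts.

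Other genes of the pathway were read as 4 lists, 42 genes in all, with 298 tests over the 9 classes. The lists were chosen with earlier results of these data known, so the counts of calls in them are descriptions. Tau over both Ch25h genotypes called 6 higher and 4 lower, 7 of the 10 in microglia and the rest in astrocytes, the classes with most calls over all genes (9.02% and, in astrocytes, 420 of 12806 or 3.28%). Among 11 other LXR targets, 5 were tested in microglia and 3 rose. These were Apoe (2.08, SE 0.40, edgeR adjusted p = 0.00593), the brain's main lipid carrier, the lipase gene Lpl (4.37, SE 0.68, adjusted p = 0.00166) and the fatty-acid synthesis gene Acaca (1.65, SE 0.38, adjusted p = 0.0159). Scd2 and Mertk were at -0.24 each and not called. In astrocytes 1 of 9 rose, Pltp (0.83, SE 0.23, adjusted p = 0.0491), a phospholipid transfer gene, and Apoe there was at 0.09 (SE 0.27).

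Of the 21 genes of sterol transport and handling, 13 were tested in microglia, where 2 rose and 2 fell. Nceh1, which hydrolyses the cholesterol esters that the Soat1 enzyme makes, rose by 1.36 (SE 0.29, edgeR adjusted p = 0.00598), from 27.4 ± 8.57 CPM in Tau- to 67.3 ± 33.9 in Tau+ (SD, n = 8). Npc2, a lysosomal cholesterol carrier, rose by 0.59 (SE 0.17, adjusted p = 0.0301). Stard3, a late-endosomal sterol transfer gene, was at 141 ± 16.1 CPM in Tau- and 94.9 ± 18.2 in Tau+ (-0.62, SE 0.12, adjusted p = 0.00195). The transporter gene Abca9 was at -0.42 (SE 0.13, adjusted p = 0.0497). In astrocytes 1 of 18 fell, the lipoprotein receptor gene Vldlr (-0.68, SE 0.18, adjusted p = 0.0468).

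Of 7 partners and cofactors, 6 were tested in microglia and none was called there (0 had an unadjusted p under 0.05 in edgeR, and the smallest was 0.269). The other, Rxrg, failed the filter on low counts there. It was at 2.37 ± 2.13 CPM in Tau- and 11.1 ± 6.64 in Tau+ libraries (SD, n = 8), and 7 of 8 Tau+ libraries lay above every Tau- library. These levels rest on 2 UMIs in Ch25h+/+ Tau- and 5 in the labelled Ch25h-/- Tau-. The Tau+ groups held 45 in Ch25h+/+ and 29 in the labelled Ch25h-/-. The share of all genes that lie apart in this way was not counted. None of the 3 other lysophospholipid acyltransferases was called in any class. Within Ch25h+/+, tau called Apoe (2.66), Lpl (4.55) and Stard3 (-0.79) in microglia, and within the labelled Ch25h-/- no listed gene. With each of the 16 libraries left out in turn, these calls were lost in 7 refits for Apoe (highest edgeR adjusted p 0.107), 7 for Lpl (0.0976) and 6 for Stard3 (0.0974), each time without a Ch25h+/+ library. All 3 were lost on either side of the library split alone. The difference between the tau effects and the loss contrasts called 0 of 298 tests each. Library 3 of Ch25h+/+ Tau+ was the lowest of its group for Apoe (732 CPM against 1840 to 3250) and for Nceh1 (27.4 against 68.0 to 129). Without it the differences were 2.22 for Apoe and 1.46 for Nceh1. It was also the lowest of its group for Lpl and for Acaca (35.6 CPM, the others at 123 or more), with differences of 4.53 and 1.78 without it. Over both Ch25h genotypes, Apoe, Lpl, Acaca, Nceh1 and Stard3 passed with each of the 16 libraries left out in turn. On libraries 1 and 2 alone Apoe and Acaca did not pass, and on 3 and 4 alone none of these 5 did. Pltp lost its call in 12 of these 16 refits, Npc2 in 10 and Vldlr and Abca9 in 13 each.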

How the data were processed

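Nuclear RNA of 16 hippocampus samples was sequenced with the 10x 3' v3.1 kit, per the labels' protocols. The authors deposited unfiltered count matrices (UMIs per gene and barcode); the submitters' processing notes name Cell Ranger 3.1.0, Seurat and mm10, and the file headers Cell Ranger 4. Barcodes with at least 500 UMIs, 300 genes and at most 5% mitochondrial UMIs were kept, and the highest Scrublet scores (0.8% per 1000 nuclei) removed. Nuclei were clustered (scanpy 1.11.5, 3000 variable genes without the members and listed pathway genes, 50 components, resolution 1) and clusters named from at least 3 markers at 2-fold; the demand for an own marker among the 10 leading genes was set after the clusters were seen, as was its exception for inhibitory clusters with Gad1, Gad2 and Slc32a1 all at 2-fold, which named 1 of the 3 inhibitory clusters (1291 of 8823 nuclei). The 34 unnamed clusters hold 27194 nuclei. Counts were summed per class and library and fitted over all genes and 4 groups with edgeR 4.0.16 (TMM, filterByExpr, quasi-likelihood, Benjamini-Hochberg). DESeq2 1.42.0 was an alternative. The fit was tested on simulated data. Class order used an exact two-sided sign-flip permutation test on log2(CPM + 1), adjusted over 72 steps. The 9 members are named in full; of the lists, called genes and up to 4 others each. Members and lists were chosen with earlier results of these data known. Nothing says that the samples came from separate animals, so p-values measure only the spread between these samples, which may be technical. Replicate numbers follow accession order. The counting of antisense reads is not given in the sources used here. The result for 1 listed pathway gene is not reported here.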

Additional observations from a re-analysis of the deposited data

Results flagged for a closer look

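In this set 5 values lay far from the other 3 libraries of their group, among 80 groups of 4 examined (20 pairs of member and class); chance alone sets about 1 in 20 groups apart in this way. Rxra in microglia was at 0 CPM in library 3 of Ch25h+/+ Tau+, with the others at 16.6 to 18.2. Mylip was at 595 CPM in microglia of 1 library labelled Ch25h-/- Tau-, with the others at 421 to 446, and at 21 CPM in DG granule neurons of the same group, with the others at 14.6 to 15.6. Abca1 was at 4.95 CPM in DG granule neurons of 1 library labelled Ch25h-/- Tau-, with the others at 5.50 to 5.61. In the other excitatory neurons Abca1 was at 9.40 CPM in 1 Ch25h+/+ Tau+ library, with the others at 4.38 to 4.96.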

How the results depend on the processing

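The count of members called for tau over both Ch25h genotypes was 1, and it was 2 without the filter on low counts, 0 on either side of the library split alone (an alternative chosen after the split was seen) and 0 to 2 with each library left out in turn. For tau in Ch25h+/+ it was 0, and 2 without the filter and 0 to 2 with a library left out, the 2 being Soat1 and Abca1 in microglia. For tau in the labelled Ch25h-/- it was 0, and 1 (Soat1 in microglia) without the filter. The causes were not tested. Shares of all genes called under these alternatives are not given here, except for microglia without library 3 of Ch25h+/+ Tau+ above. These counts therefore do not set the members apart. The 4 other contrasts stayed at 0 calls under every alternative run. In the order of classes, 35 to 40 of 72 steps were called with a library left out, against 38 with all. Without the inhibitory cluster that had no own marker among its leading genes (an alternative chosen after the clusters were seen) 37 steps were called; Abca1 in CA1 over inhibitory neurons went from an adjusted p of 0.0361 to 0.118, and no count of members called changed. For 25 results of single genes, 574 planned values gave 497 the same, 75 weaker, 2 stronger and 0 reversed. The 75 values of added alternatives gave 55 the same, 20 weaker and 0 reversed. Pltp, Vldlr and Abca9 lost their calls without 12, 13 and 13 of 16 libraries in turn. The demand for 3 times the level of empty barcodes removed 0 nuclei and so changed nothing. Libraries of different genotype groups could not be paired, because the labels carry no replicate numbers. In simulated microglial counts, 76 of 85 genes changed by 1 on the log2 scale were recovered and 9 of 8492 were false calls. Smaller differences, such as those of Abca1, were not simulated. These rates are for the simulated counts only. Recovery and false calls in the measured counts, with their library split, were not tested. With 28 microglial UMIs of Nr1h3 and 27 of Abcg4, these members failed the filter on low counts there and were not tested.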
